A study of Mus musculus with 20 samples.

Results

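Potassium channel subunits in the hippocampus were followed through ribosome footprints and input RNA of mice that lack Qtrt1 and of wild-type mice. The members were the 63 genes, of 18054 in the count table, whose symbol starts with Kcna, Kcnb, Kcnc, Kcnd, Kcnh, Kcnj, Kcnk, Kcnma, Kcnn, Kcnq or Kcnt followed by a digit. Kcnj13 was left out because it marks the choroid plexus. The Qtrt1 product is the catalytic part of a tRNA-modifying enzyme, which places queuosine in the anticodon of tRNAs that read tyrosine, histidine, asparagine and aspartate codons. A footprint is the mRNA stretch that a ribosome protects from nuclease, and input RNA is RNA of the same lysate before digestion.

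There were 10 animals, each with 1 footprint and 1 input library: 3 wild-type and 3 Qtrt1-/- females, and 2 wild-type and 2 Qtrt1-/- males. The labels give a Qtrt1-/- genotype without a promoter or Cre driver, and they name no treatment. Females were 6 months and 21 days old, apart from wild-type female 1 at 6 months and 22 days. In males of both genotypes animal 1 was 6 months and 18 days old and animal 2 was 5 months and 16 days old. Sex and age therefore cannot be told apart. The labels number animals as replicates within each sex and genotype.

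Potassium channels let potassium leave or enter the cell and so set the resting potential, shape the action potential and limit repetitive firing of neurons. Voltage-gated subunits of the Kcna to Kcnd, Kcnq and Kcnh groups open on depolarisation, Kcnma, Kcnn and Kcnt channels respond to intracellular calcium or sodium, and Kcnj inward rectifiers and Kcnk leak channels hold the membrane near rest. In the hippocampus, A-type channels with Kcnd2 act in pyramidal cell dendrites, M-current channels with Kcnq3 and Kcnq5 damp firing, and the inward rectifier Kcnj10 of astrocytes clears potassium.

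These proteins share a selectivity filter, a short stretch of the pore that usually reads glycine, tyrosine, glycine. Tyrosine is decoded by a tRNA that carries queuosine, whereas phenylalanine, which some members have in its place, is not. The coding strand was therefore searched in frame for a threonine or serine codon, a valine, isoleucine or leucine codon, GGN, a tyrosine, phenylalanine or leucine codon, and GGN. The search used 1 GENCODE M21 coding sequence per gene, and 62 of 63 members held a match, as did 1.07% of 17676 other coding sequences. The exception was Kcnk2. The sequence searched need not be the longest of a gene, so the missing match is not read as a property of Kcnk2. A match is a description of letters and not a measurement of the channel. The filter stretches of the members that the results below turn on are shown 5′ to 3′, with the tyrosine or phenylalanine codon in capitals.

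Kcna6: atgaccacggtaggtTATggggacatgtac
Kcnj10: cagaccaccatcggcTATggcttccgctac
Kcnk3, first pore: atcaccaccatcggcTATggtcatgcggcg
Kcnk3, second pore: ctcaccaccatcggcTTCggcgactatgtg
Kcnh1: ctcaccagtgtgggcTTTggtaacattgcc
Kcnh3: ctcaccagtgtgggcTTCggcaacgtgtcc
Kcnh5: cttacaaccataggaTTTggaaacatagct
Kcnh7: ctaaccagtgtaggaTTTggaaatgtgtct
Kcnt1: ttctcaactgtgggcTTCggtgatgtgacg

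All 8 Kcnh and both Kcnt genes carry phenylalanine at this place, as do Kcnj8, Kcnj11, Kcnk12 and Kcnk13, which makes 14 members with phenylalanine alone. Tyrosine alone was found in 39 members. These classes describe the sequence searched, and a pore outside it would be missed. Kcnk10, with 1 match, was counted under tyrosine alone on this basis. Another 6 Kcnk genes, among them Kcnk3, have tyrosine in the first pore and phenylalanine in the second.

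Qtrt1 itself was checked first. Footprints on it numbered 28 to 94 per wild-type library and 1 to 10 per knockout library, and input counts were 66 to 88 and 24 to 29, so no library went against its genotype label. Total counts ran from 5357812 to 15517982 per footprint library and from 9000662 to 13637370 per input library. The members held 0.376% to 0.4% of footprints in female wild types and 0.323% to 0.343% in female knockouts. In males these shares were 0.323% and 0.386% in wild type and 0.335% and 0.348% in knockouts. Markers of astrocytes, microglia and oligodendrocytes were present in every library, as were the 7 of 8 listed CA field markers that the count table holds. Levels of tissue that borders the hippocampus differed between libraries. The 12 choroid plexus markers averaged 2.29, 2.63 and 5.71 log2 CPM (counts scaled to a common library size) in footprints of female wild types and 6.49, 6.19 and 4.78 in female knockouts. The 13 striatum markers averaged 6.20, 4.95 and 6.06 in female wild types, 4.13, 5.28 and 3.81 in female knockouts, and 3.71 to 4.2 in the 4 males. None of these choroid plexus or striatum markers was at 0 in any library.

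Levels between genes were compared as footprint CPM per kilobase of coding sequence, given as mean and SD over the 5 wild-type animals. The leak channel Kcnk1 was highest at 314 ± 60.4 (SD, n = 5). Its lowest animal, at 264, lay above the highest animal of the next member, the glial inward rectifier Kcnj10, at 200. Kcnj10 averaged 155 ± 33.8 (SD, n = 5) and overlapped with the delayed rectifier Kcna1 at 113 ± 10.6 (SD, n = 5), whose range was 99.6 to 126.

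From Kcna1 in the third place to Kcnj3 in the eighth, each member's range overlapped with that of the next. The leading Kcnd gene was Kcnd2 at 93.8 ± 4.96, and the leading Kcnc gene was the fast delayed rectifier Kcnc1 at 89.5 ± 15.8 (SD, n = 5 each). The calcium- and voltage-gated Kcnma1 stood at 86.0 ± 15.1 (SD, n = 5). Among Kcnh genes the ether-a-go-go-related Kcnh7 led at 38.8 ± 12.9. The sodium-activated Kcnt2 stood at 27.9 ± 6.10 and the small-conductance calcium-activated Kcnn2 at 19.8 ± 4.19 (SD, n = 5 each). The median over the 63 members was 19.8, and 50 of them reached 1 or more. At the low end Kcna7, Kcnj14 and Kcnj15 had no footprint in any wild-type library.

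**Figure D1:**
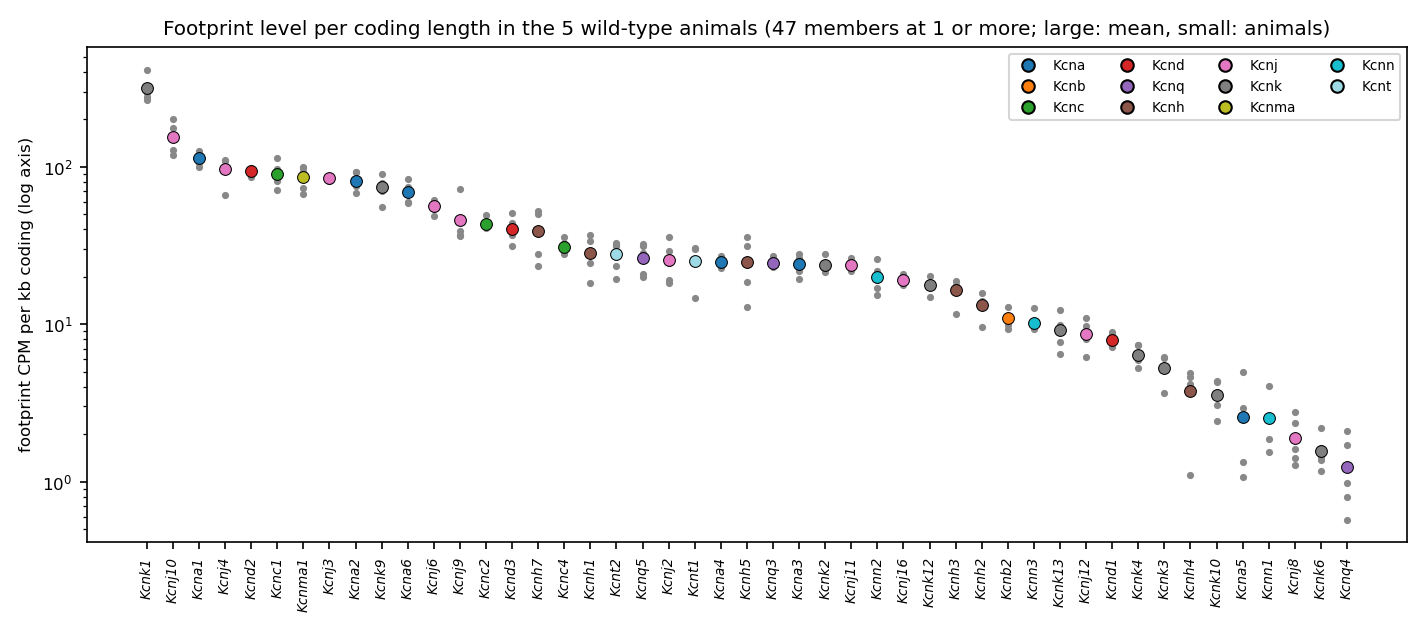
Footprint level of members in the wild-type animals, as CPM per kilobase of coding sequence on a log axis, for 47 of the 50 members at 1 or more. Large coloured points are means over 5 animals, small grey points are animals, and colours are subfamilies. Kcnk1 stands above the rest at 314 and the values then fall without a gap.

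Footprints relative to input RNA were described as the log2 of the CPM ratio in the same animal, with 0.5 added to each count. The median of 54 members in wild-type animals was -0.27, against -0.21 over 14146 genes. Kcnj10 was highest at 2.08 ± 0.15, followed by Kcnk1 at 1.37 ± 0.22 and the A-type subunit Kcnd1 at 1.21 ± 0.28 (SD, n = 5 each). The M-current subunit Kcnq3 was low at -1.96 ± 0.11, as was the leak channel Kcnk10 at -1.71 ± 0.50 (SD, n = 5 each). The value for the inward rectifier Kcnj14, -3.40 ± 0.42 (SD, n = 5), was lower still but rests on the added 0.5, since no wild-type library held a footprint on it.

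In females, knockout footprints on 10 members were lower and those on 1 member were higher, at an adjusted p under 0.05 (Benjamini-Hochberg) in edgeR's quasi-likelihood test. Of 13143 genes tested, 7.06% were called in either direction, 4.25% lower and 2.81% higher, and 52 members could be tested. The lower members included 5 of the 8 Kcnh genes, which encode the ether-a-go-go, erg and elk channels, and also Kcnt1, Kcnk3, Kcnj12 and Kcna6. The higher member was Kcnn2. The median change was -0.27 on the log2 scale in members and 0 in all genes, and 43 of 52 members were below 0 against 49.6% of all genes. In bulk tissue, fewer cells of a type and less RNA per cell cannot be told apart.

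Levels are given next as CPM scaled by TMM factors, per animal. The elk channel gene Kcnh3 had 63.4, 60.3 and 59.1 in wild types and 32.3, 28.0 and 37.0 in knockouts. All knockouts lay below all wild types, and the change was -0.91 ± 0.15 (log2, SE; adjusted p = 0.00906). Kcnh5, an ether-a-go-go subunit, had 96.5, 75.4 and 111 against 43.9, 50.6 and 47.9, a change of -0.99 ± 0.18 (adjusted p = 0.0099). Its close relative Kcnh1 had 113, 83.5 and 104 against 54.9, 64.8 and 63.9, a change of -0.71 ± 0.15 (adjusted p = 0.0165). Wild-type female 2 was the lowest wild-type animal for both genes, without reaching the knockout range.

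Kcnh7 and Kcnh2 encode erg subunits, which carry slow currents after a burst. Kcnh7 had 186, 149 and 195 CPM against 90.2, 113 and 102, a change of -0.80 ± 0.14 (adjusted p = 0.0103). Kcnh2 had 50.3, 47.3 and 48.2 against 30.7, 32.8 and 30.2, a change of -0.64 ± 0.16 (adjusted p = 0.0346). For both genes the groups did not overlap. The other 3 Kcnh genes did not pass: Kcnh4 had a log2 difference of -1.12 ± 0.36 (adjusted p = 0.0703), Kcnh6 of -1.04 ± 0.39 (adjusted p = 0.117) and Kcnh8 of 0.60 ± 0.44 (adjusted p = 0.411). Kcnh6 and Kcnh8 stayed under 3 CPM in each female. The median of the 8 Kcnh genes was -0.85.

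Kcnt1 encodes a sodium-activated channel that follows bursts of firing. It had 118, 94.2 and 116 CPM in wild types and 60.8, 60.2 and 65.2 in knockouts, a change of -0.82 ± 0.17 (adjusted p = 0.0169). The groups did not overlap. Its paralogue Kcnt2 had a log2 difference of -0.20 ± 0.10 (adjusted p = 0.237).

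Kcnk3, an acid-sensitive leak channel, had the largest called fall at -1.06 ± 0.23 (adjusted p = 0.0192). Its level was low, at 7.85, 6.5 and 7.8 CPM in wild-type and 3.76, 3.35 and 3.49 in knockout females. Kcnj12, an inward rectifier, fell by 0.75 ± 0.18 (log2, SE; adjusted p = 0.0296), from 17.9, 13.2 and 16.2 to 8.62, 8.90 and 10.5. The delayed rectifier Kcna6 fell by 0.37 ± 0.10 (log2, SE; adjusted p = 0.0444), from 137, 114 and 123 to 99.0, 88.1 and 101. Kcnn2 moved the other way, from 39.7, 56.8 and 50.2 to 65.9, 80.5 and 73.3, a change of 0.58 ± 0.16 (adjusted p = 0.0422). Groups were separate for each of these genes.

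**Figure D2:**
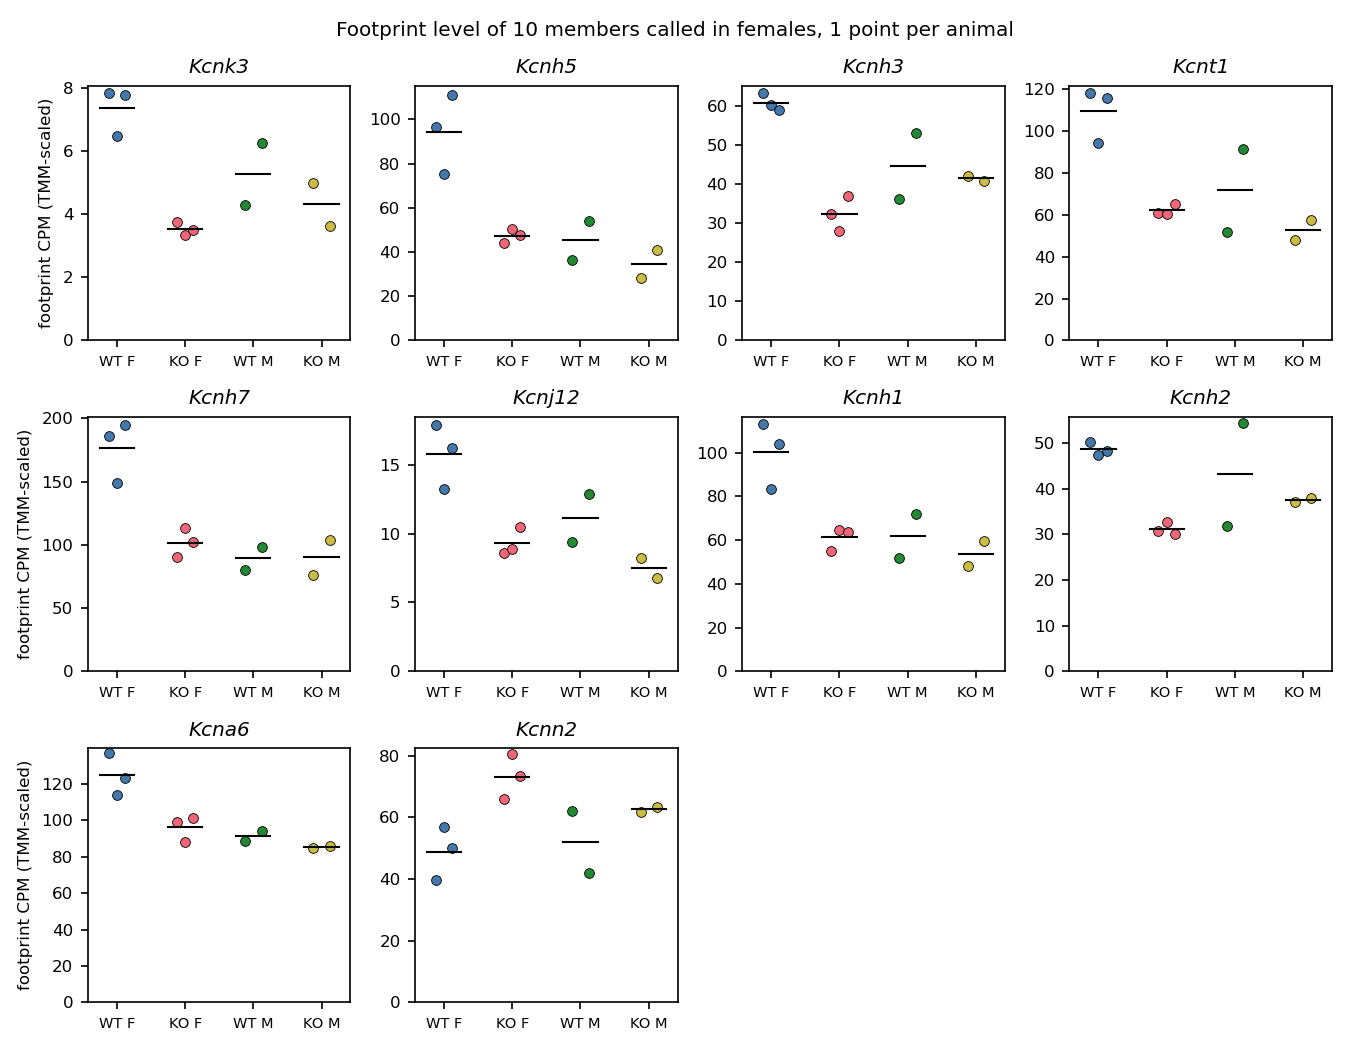
Footprint level (TMM-scaled CPM, linear axis from 0) of 10 of the 11 members called in females, in each animal; bars are group means. WT is wild type, KO is knockout, F is female and M is male. In 10 of 10 panels the female groups are separate, and the male genotypes are closer together; wild-type male 2 is above wild-type male 1 for the 9 lower members shown, and for Kcnh2 it is also above the wild-type females.

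Counted without a test, 26 of 52 members had all knockout females below all wild-type females and 1 had them above. Over all genes these shares were 17.8% and 17.1%. Phenylalanine at the filter alone was held by 14 tested members, of which 6 were called lower, and their median log2 change was -0.72. Tyrosine alone, in the sequence searched, was held by 32 tested members. Of these 3 were called lower and 1 higher, with a median of -0.18. The first of these classes holds all Kcnh and Kcnt genes, and its 6 called members were all from these subfamilies. Its members Kcnj8, Kcnj11, Kcnk12 and Kcnk13 were not called, at -0.72 ± 0.41, -0.35 ± 0.12, -0.32 ± 0.15 and 0.11 ± 0.20. Whether the filter codon matters apart from subfamily was not tested.

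Members of other subfamilies showed smaller differences. None of 3 Kcnd genes was called in female footprints, and Kcnma1 was not called. Kcnd2 was measured at 187, 191 and 191 CPM against 179, 196 and 177, a difference of -0.04 ± 0.09. Kcnd3, also an A-type subunit, was among the 3 highest at 0.19 ± 0.16 (adjusted p = 0.475). The leading members Kcnk1, Kcnj10 and Kcna1 had differences of -0.18 ± 0.14, -0.34 ± 0.19 and -0.18 ± 0.12, with adjusted p values of 0.425, 0.283 and 0.368.

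The tissue markers given above moved along with these groups, and their part in the result was not tested. Striatum markers were higher in wild-type females 1 and 3 than in all 3 knockout females, and choroid plexus markers were low in wild-type females 1 and 2. Dentate gyrus markers averaged 3.53, 4.21 and 3.80 in wild-type and 4.56, 4.61 and 4.51 in knockout females. The 7 meningeal fibroblast markers averaged 3.87, 4.44 and 4.22 against 5.25, 4.91 and 5.13 in footprints, and 3.79, 4.14 and 3.59 against 4.63, 4.24 and 4.62 in input RNA, so the female groups were separate in both assays. Interneuron markers averaged 7.07, 6.85 and 7.12 against 6.70, 6.68 and 6.63 in footprints. In input RNA they overlapped, at 6.01, 5.74 and 6 against 5.68, 5.78 and 5.63. No member was called when wild-type females 1 and 3 and knockout female 2 were left out, which leaves 1 wild-type female. In that fit 42 of 52 members were below 0, with a median of -0.22. With choroid plexus and striatum levels as covariates none was called, and 41 of 52 were below 0 with a median of -0.16. Without wild-type females 1 and 2 there were 2 calls, Kcnh5 and Kcnh7. Single animals mattered as well: 1 call, Kcnh3, was left without wild-type female 1, none without knockout female 1, 5 without knockout female 2 and 7 without wild-type female 3.

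Input RNA of females gave 10 called members, all lower, of 54 tested. In all genes 3.48% were called, 2.73% lower. They included Kcnh1, Kcnh3, Kcnh4, Kcnh5, Kcnh7, Kcnk3, Kcnt1, Kcnt2 and Kcnq5. The median change was -0.20 against 0.01 in all genes, and 43 of 54 members were below 0 against 48% of all genes. Of these, 7 were also called in footprints, which is 63.6% of the footprint calls and 70% of the input calls.

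The elk gene Kcnh4 had 13.4, 9.95 and 13.7 CPM of input RNA in wild types and 4.14, 6.66 and 5.64 in knockouts, a change of -1.17 ± 0.25 (adjusted p = 0.0325). Kcnh5 had 153, 114 and 201 against 65.8, 82.2 and 78.1, a change of -1.05 ± 0.25 (adjusted p = 0.0422). Kcnh7 had 273, 224 and 294 against 144, 163 and 147, a change of -0.80 ± 0.13 (adjusted p = 0.0122). In these 3 genes every knockout lay below every wild type.

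For Kcnk3, Kcnh1, Kcnh3 and Kcnt1 the input changes were -0.75 ± 0.16, -0.68 ± 0.12, -0.52 ± 0.09 and -0.52 ± 0.10. Their adjusted p values were 0.0308, 0.0174, 0.0127 and 0.0201. The M-current subunit Kcnq5 had 141, 130 and 149 CPM against 86.4, 110 and 91.4, a change of -0.55 ± 0.10 (adjusted p = 0.0169). Kcnt2 had 271, 252 and 290 against 177, 200 and 201, a change of -0.49 ± 0.07 (adjusted p = 0.0102). Kcnh2, Kcnj12, Kcna6 and Kcnn2, called in footprints, had input differences of -0.25 ± 0.09, -0.42 ± 0.19, -0.27 ± 0.09 and 0.27 ± 0.10 that did not pass, with adjusted p values of 0.149, 0.243, 0.122 and 0.136. Input calls fell to 0 without the 3 females with high striatum markers, with the marker covariates and without knockout female 1. They fell to 1 without wild-type female 1, 4 without knockout female 3 and 6 without wild-type female 3.

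**Figure D3:**
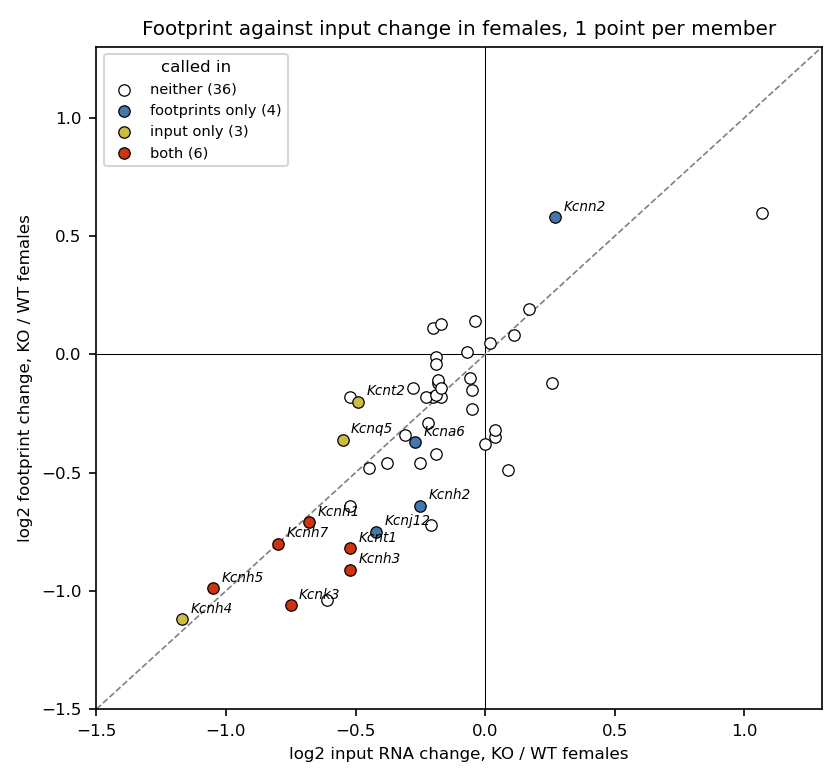
Log2 change of footprints (y) against input RNA (x), knockout relative to wild type in females, for 49 of the 52 members tested in both; the dashed line marks equal change and colours show where a member was called. The 6 members shown as called in both lie at or below -0.52 on both axes, and Kcnn2 is the called member above 0.

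Translational efficiency, the footprint change beyond the input change, was tested in a model of all 20 libraries. The model used group means and did not pair the footprint and input library of an animal. No member of 54 was called in females, where 0.0424% of 14146 genes were. At an unadjusted p under 0.05 there were 3 members, and DESeq2 called 0. The lowest adjusted p among members was 0.297, for Kcnt2 at 0.31 ± 0.12. Kcnh3 had -0.37 ± 0.17 (adjusted p = 0.373) and Kcnh7 had 0.02 ± 0.21 (adjusted p = 0.991). In males, over both sexes and for the sex-by-genotype term, 0 members were called by edgeR or DESeq2, with 0, 3 and 1 members at an unadjusted p under 0.05 and a background of 0% in each.

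In males, no member was called in footprints or input RNA, and the background was 0% in both. At an unadjusted p under 0.05 there were 3 members in footprints and 9 in input RNA, and DESeq2 called 0 in both. The median footprint change was -0.04, with 36 of 52 members below 0, and that of input RNA was -0.07. Kcnh3 had 36.3 and 53.2 CPM in wild-type males and 42.2 and 40.9 in knockouts, a difference of -0.08 ± 0.18. Kcnh7 had 80.0 and 98.5 against 76.0 and 104, a difference of 0.02 ± 0.18. For both genes the male groups overlapped.

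The 3 lowest members in male footprints were the leak channel Kcnk13 at -0.81 ± 0.25, Kcnh4 at -0.67 ± 0.50 and Kcnj12 at -0.53 ± 0.23, with an adjusted p of 0.963 each. The 3 highest were Kcna5 at 0.70 ± 0.43, Kcnh8 at 0.49 ± 0.52 and Kcnq3 at 0.41 ± 0.13, also with an adjusted p of 0.963 each. Kcnk13 had 11.5 and 14.7 CPM against 5.77 and 9.08, and Kcnq3 had 59.5 and 59.5 against 72.5 and 85.5. With 2 animals per genotype these values set no firm bound on a male change.

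**Figure D4:**
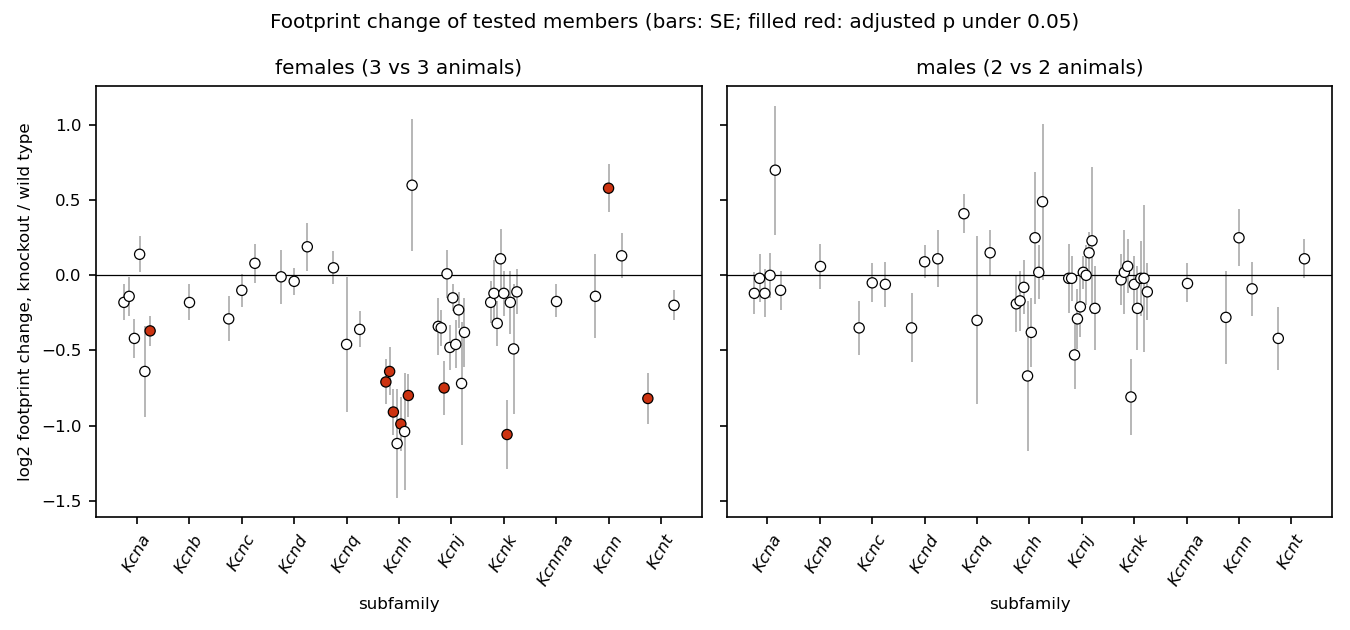
Log2 footprint change of 49 of the 52 tested members, knockout relative to wild type, by subfamily in females (left) and males (right); bars are SE and filled points have an adjusted p under 0.05. In females 5 of 8 Kcnh genes are filled below 0, and in males no point is filled.

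The difference between the sexes in the genotype effect was tested directly, and no member passed in footprints or input RNA, with a background of 0% in both. There were 9 and 10 members at an unadjusted p under 0.05. DESeq2 called 0 members in footprints and 2 in input RNA, Kcnh3 and Kcnh7. The female change minus the male change in footprints was -0.82 ± 0.23 for Kcnh3 and -0.81 ± 0.23 for Kcnh7, each with an adjusted p of 0.348. In input RNA it was -0.72 ± 0.14 for Kcnh3 (adjusted p = 0.197) and -0.68 ± 0.21 for Kcnh7 (adjusted p = 0.34). A female effect that differs from the male one was thus not shown by the main test.

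Over the mean of both sexes 0 members were called in footprints, against 0.00761% of genes. At an unadjusted p under 0.05 there were 17 members, and DESeq2 called 9. The matching shares of all genes are not given here, so these counts are not read as particular to the members. In input RNA Kcnh2 fell by 0.36 ± 0.07 (log2, SE; adjusted p = 0.0499) and Kcnt2 fell by 0.28 ± 0.06 (log2, SE; adjusted p = 0.0489). In all genes 0.734% were called, 0.642% lower and 0.0918% higher. Kcnh2 input RNA was 37.9, 37.5 and 37.7 CPM in wild-type and 32, 32.6 and 30.5 in knockout females. In males it was 31.8 and 40.7 against 25.4 and 27.0. The groups were separate in both sexes for Kcnh2. For Kcnt2 the male groups overlapped, at 241 and 251 against 245 and 226. Leaving out wild-type male 1 gave 11 calls and leaving out wild-type female 2 gave 13, whereas 0 calls were left without any of the other 8 animals. In footprints 13 members were called when wild-type male 1 was absent and 5 when wild-type female 2 was.

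Between the sexes, with genotypes averaged, 17 of 52 members were called in footprints (16 lower in males and 1 higher) against a background of 29.9%, of which 15.2% were lower and 14.7% higher. In input RNA the count was 13 of 54 (12 lower and 1 higher) against 20.1%, with 11.2% lower and 8.83% higher. These member shares of 32.7% and 24.1% are close to the background when both directions are pooled. By direction they were not: 16 of 17 called members in footprints and 12 of 13 in input RNA were lower in males. The background calls were split more evenly, and this difference in direction was not tested. The members lower in male footprints were Kcna3, Kcna4, Kcna5, Kcna6, Kcnb2, Kcnh1, Kcnh4, Kcnh5, Kcnh7, Kcnj2, Kcnj12, Kcnk9, Kcnma1, Kcnq5, Kcnt1 and Kcnt2, with log2 changes from -1 for Kcna5 to -0.28 for Kcna4 and Kcnb2.

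In footprints the lowest adjusted p among members between the sexes was that of Kcnt2, with a change of -0.52 ± 0.08 (adjusted p = 0.000646), from 90.5 to 116 CPM in the 6 females to 64.8 to 79.7 in the 4 males. Kcnma1 had 317 to 384 in females and 214 to 276 in males, a change of -0.50 ± 0.08 (adjusted p = 0.00101). For both genes the sexes did not overlap. In input RNA the members lower in males included Kcna3, Kcna4, Kcna5, Kcna6, Kcnh1, Kcnh3, Kcnh4, Kcnj2, Kcnj4, Kcnma1 and Kcnt1, and the calcium-activated Kcnn1 was higher at 0.31 ± 0.09 (adjusted p = 0.0297). With the marker covariates 0 members were called in either assay, and Kcna5 took the opposite sign, at 0.05 in footprints and 0.06 in input RNA. Without the 3 females with high striatum markers 3 members were called in footprints and 7 in input RNA. Without wild-type females 1 and 2 there were 7 in footprints. Footprint calls numbered 8 when knockout male 1 was left out, 10 for wild-type female 1 and 11 for knockout females 1 or 3, and input calls numbered 8 when either knockout male was left out.

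Proteins that assemble with, anchor or modulate these channels were counted from a list of 44 genes, of which 35 were tested in each assay. In female footprints 1 was lower and 0 were higher, or 2.86% of the partners against 7.06% of all genes. This was Kcnv1, a silent subunit that joins Kcnb channels, at -0.46 ± 0.10 (adjusted p = 0.0214). In female input RNA 4 were lower and 0 were higher, or 11.4% against 3.48%. Kcnv1 had -0.66 ± 0.12, the large-conductance channel subunit Kcnmb4 had -0.46 ± 0.09, and the scaffolds Dlg1 and Dlg2 had -0.30 ± 0.07 and -0.23 ± 0.05, with adjusted p values of 0.0146, 0.0236, 0.0398 and 0.0454. The median of the partners was -0.06 in footprints and -0.12 in input RNA, against 0 and 0.01 over all genes. In males 0 partners were called in footprints or input RNA, with 2 and 6 at an unadjusted p under 0.05.

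Codon occupancy within member mRNAs was read from the tables of footprint coverage per codon, which list codons with at least 1 footprint. Member mRNAs held 5267 to 12194 footprints on 1376 to 2431 listed codons per library, or 0.401% to 0.583% of the coverage. The codon given in the tables was that of the GENCODE M21 coding sequence in 99.7% to 99.8% of rows. These matching rows covered 40 of the 63 members. Members without any such row included Kcna1, Kcna6, Kcnj12, Kcnma1, Kcnn2 and Kcnt1, so the shares below do not describe them. Coverage was concentrated: Kcnd2 carried 18.6% of it, the 5 leading genes Kcnd2, Kcnj10, Kcnj4, Kcnh7 and Kcnk9 carried 63.0%, and Kcnh genes 19.6%. Kcnk1, the leading member in the count table, had 272 footprints in all in these tables.

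The 8 queuosine codons make up 13.2% of codons in the 46 member mRNAs and 13.8% in all 10968 mRNAs of the tables. Shares were taken at the listed codon and at the codon 1 upstream of it, since the tables do not say which ribosomal site the listed codon stands for. They were not tested. At the listed codon, tyrosine codons of members averaged 2.59% in wild-type and 2.54% in knockout females, and 2.15% and 2.37% in males. Asparagine codons there averaged 2.88% and 2.88% in females and 2.80% and 2.50% in males, so these differences between genotypes were smaller than those at the upstream codon, which are given next. Upstream, tyrosine codons took 3.16%, 3.29% and 2.72% of member coverage in female wild types and 4.74%, 3.65% and 4.60% in female knockouts. In males they took 3.44% and 3.06% against 4.29% and 4.26%. Knockouts were above wild types in both sexes, and over all mRNAs the group means were 2.97% and 4.11% in females and 2.90% and 3.80% in males.

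Asparagine codons upstream took 4.40%, 4.42% and 3.17% of member coverage in wild-type females against 6.90%, 5.89% and 5.48% in knockouts. In males they took 3.61% and 3.84% against 4.63% and 5.14%. Over all mRNAs the group means also rose, from 5.0% to 5.94% in females and from 4.36% to 5.42% in males. Aspartate codons upstream went the other way in females, with 14.3%, 14.3% and 15.1% against 10.8%, 12.2% and 11.5%. In males they overlapped, at 11.9% and 14.5% against 11.7% and 14.3%. Over all mRNAs the aspartate means were also lower in knockouts, at 13.4% and 11.5% in females and 12.6% and 11.6% in males. Histidine codons upstream stayed under 1% of member coverage in every library, and the knockout mean was lower in members and higher over all mRNAs in both sexes.

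Summed over the 8 codons, the upstream member share averaged 22.3% and 22.4% in wild-type and knockout females, and 20.9% and 22.7% in males. The control codons of phenylalanine, cysteine and serine, read by tRNAs without queuosine, averaged 9.58% and 11.4% in females and 10.2% and 11.5% in males. The control share thus also differed between genotypes in members, by 1.84 percentage points in females and 1.31 in males. Over all mRNAs these differences were 0.794 and 0.41. At the listed codon itself the queuosine share of members was 16.0% in wild-type and 14.8% in knockout females, and 13.6% and 14.2% in males. Over all mRNAs it was 17.7% and 19.1% in females and 17.1% and 18.7% in males, so the female difference had the opposite sign. Since Kcnd2 alone sets part of these shares, its removal moved the female difference at the upstream codon from 0.163 to 2.07 percentage points.

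**Figure D5:**
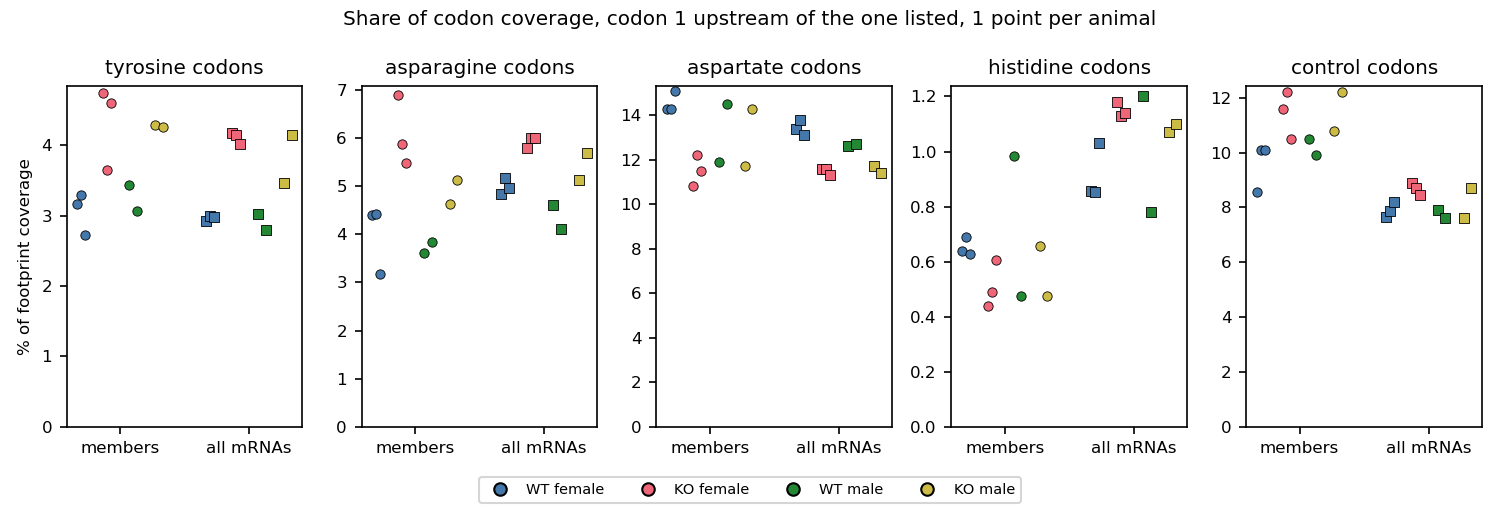
Share of footprint coverage (percent, axis from 0) on tyrosine, asparagine, aspartate, histidine and control codons at the codon 1 upstream of the listed one, in member mRNAs (circles) and all mRNAs (squares), 1 point per animal coloured by sex and genotype. Tyrosine and asparagine points of knockouts lie above those of wild types of the same sex in members, and aspartate points lie below in females.

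The filter codons shown above were themselves thinly covered. The tyrosine codon of the filter, held by 46 members, had 255 footprints in all at the listed codon, from 9 to 39 per library. Members without rows in these tables, such as Kcna1 and Kcna6, could add none. The counts were 32, 21 and 30 in female wild types and 25, 24 and 22 in female knockouts. In males there were 39 and 26 against 9 and 27, and wild-type male 1 was the deepest library. Kcnk9, an acid-sensitive leak channel, gave 17, 12 and 15 of them in female wild types and 18, 12 and 18 in female knockouts. Kcnj10 gave 8, 8 and 12 against 2, 8 and 3. The phenylalanine codon of the filter had 40 footprints in all at the listed codon and 244 at the next one. With so few footprints no test was made at the filter.

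Counting rules touch some members. In GENCODE M21, exons of 20 of 63 members overlap those of another gene, on the opposite strand in 19 cases and on the same strand for Kcnk4. Among the called members these include Kcna6, Kcnh3, Kcnh7, Kcnk3, Kcnn2, Kcnq5 and Kcnt2 in the comparisons of genotype, and Kcnma1 and Kcnn1 between sexes. The labels do not say whether counting used strand, and reads of such partners cannot be told apart. Members outside the footprint test numbered 11, namely Kcna7, Kcna10, Kcnj5, Kcnj14, Kcnj15, Kcnk5, Kcnk7, Kcnk15, Kcnk18, Kcnn4 and Kcnq1, with at most 20 footprints in any library.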

How the data were processed

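Ribosome footprints and input RNA of 10 hippocampi were analysed from the gene counts that the authors deposited, which are whole numbers with a different total in each library and so taken as not normalized. The deposited codon tables give coverage as counts of footprints per codon; their occupancy column, a ratio to the mRNA's mean coverage, and the covered percent of the coding sequence, both per the file headers, served only to describe the files. Per the submitters' processing notes, the tools were SAMtools 0.1.19, Bowtie 1.0.0 and 1.2.2, Trimmomatic 0.39 and cutadapt 1.8.1. Their roles, the genome build and the counter were not given in the sources used here. Per the labels' protocols, lysates held cycloheximide and input RNA was depleted of rRNA.

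Genes were tested in R 4.3.3 by edgeR 4.0.16, with TMM scaling. The filter was filterByExpr on the 4 groups of sex and genotype in an assay. For translational efficiency it used the groups of both assays. Quasi-likelihood F tests were made on all 10 libraries of an assay, or on 20 for translational efficiency. Adjustment (Benjamini-Hochberg) covered all genes tested, and calls were made at an adjusted p under 0.05. SE is the log2 change divided by the root of F. On simulated data with 2-fold changes in the female comparison, 77.3% were recovered in footprints (13009 genes), 79.5% in input RNA (13996 genes) and 53.8% in translational efficiency (13925 genes). Of the calls made there, 8.38%, 7.02% and 7.83% were false, which is above the level of 0.05 set for calls. Smaller changes were not simulated. DESeq2 1.42.0, other scaling, no filter, left-out animals, replicate blocks and marker covariates were alternatives. Member counts from these alternatives, and at an unadjusted p, stand without the share over all genes. They are not read as particular to the members. Coding length is the longest coding sequence in GENCODE M21, used in place of the planned RefSeq protein length. Same-numbered animals of the 2 genotypes had correlations of deviations under 0.1 in each pair and were not treated as paired. Footprint and input of an animal come from 1 lysate and had r of 0.26 to 0.55. P-values measure the spread between the animals, and for translational efficiency the spread between unpaired libraries of each assay. Members given in full were those called in any comparison, the leading member per subfamily, and the 3 extremes of the footprint changes and footprint-to-input ratios. The members, partner and marker lists were chosen with earlier results of these data known. A few members are counted but not reported by name here.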

Additional observations from a re-analysis of the deposited data

How the results depend on the processing

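The count of calls stayed at 0 for translational efficiency and for males under each alternative that kept 2 or more animals per group. Direction was followed only for members called in the main fit, so it was not compared there. With the replicate block by number, 7 members were called in female footprints in place of 11, 10 in female input RNA, and 1 in input RNA over both sexes. Same-numbered females had r of -0.12, -0.18 and -0.21 in footprints, and none was closest to its own number. Same-numbered males also share an age, and had r of -0.08 in footprints and 0.09 in input RNA, which 2 pairs do not settle. The animal as block changed no call in translational efficiency. Left-out animals gave 0 to 14 calls in female footprints, 0 to 15 in female input RNA, 0 to 13 over both sexes in footprints and 0 to 13 in input RNA, 8 to 16 between sexes in footprints and 8 to 19 in input RNA, and 0 for sex by genotype in both assays. Leaving out the 2 females with low choroid plexus markers gave 2 calls in female footprints, 6 over both sexes in input RNA and 7 between sexes in footprints. Leaving out the 3 females with high striatum markers gave 0 calls in female footprints, female input RNA and input RNA over both sexes, and 3 (footprints) and 7 (input RNA) between sexes. Covariates gave 0 calls in these 5 comparisons, and 2 values changed sign, Kcna5 between sexes at 0.05 in footprints and 0.06 in input RNA. DESeq2 called 9 over both sexes in footprints, 9 in input RNA and 2 for sex by genotype in input RNA; without the filter there were 9 and 6 over both sexes. The cause was not tested, except that left-out animals leave fewer samples.

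For queuosine codons, the difference at the listed codon in females was -1.23 percentage points, -0.859 without Kcnd2 and 0.185 when codons were counted in place of coverage; in males it was 0.519 and 1.02 without Kcnd2. Upstream it was 0.163 in females and 2.07 without Kcnd2. Left-out animals gave -1.46 to -1.07 and 0.0888 to 0.948 at the listed codon and -0.144 to 0.38 and 0.381 to 3.22 upstream, for females and males. Filter tyrosine codons had a female difference of -5.18 per 10000 member footprints, and -12.1 with both codons. The median coding-length level and the footprint-to-input median moved by less than their SD with TMM scaling and with any wild-type animal left out. Depth limits members under about 20 footprints per library, and 2 males per genotype limit each male comparison.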
